A study of Mus musculus with 4 samples.

Results

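Bone capillary endothelial cells (ECs) that carried UMIs (unique molecular identifiers, each marking 1 captured RNA molecule) of Aplnr or Gpihbp1 were compared between mice lacking Lats2 in endothelium and their controls. Aplnr encodes the receptor for apelin, and Gpihbp1 encodes the capillary protein that carries lipoprotein lipase to the vessel lumen. A barcode was kept when it held at least 1000 UMIs, at least 800 genes, under 15% mitochondrial UMIs and under 5% hemoglobin UMIs. It was called an EC when it held at least 1 UMI of the endothelial cadherin gene Cdh5, at least 3 UMIs over Cdh5, Pecam1 and Egfl7, and none of the leukocyte gene Ptprc. Capillary ECs were chosen by measured UMIs: an EC was called capillary when Aplnr and Gpihbp1 together gave at least 2 UMIs, when it held no UMI of Apln (the ligand apelin, made by sprouting cells) or Stab2 (a sinusoidal receptor), and when it held at most 1 UMI of Vwf and at most 1 UMI over the arterial genes Sema3g, Stmn2 and Gja5. Of 24739 barcodes kept, 2904 were ECs and 316 were capillary ECs. The 316 cells were 37 and 41 cells of mutant replicates 1 and 2, and 117 and 121 cells of control replicates 1 and 2. No barcode of a capillary EC occurred in more than 1 library.

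The study asked what loss of the Hippo kinase LATS2 in endothelium does to long bone. Single-cell libraries were made from the metaphysis, the region below the growth plate, of the femur and the tibia, taken from mice aged 12 weeks, after depletion of blood cells. The mutants, labelled Lats2iECKO, carried floxed Lats2 alleles and a tamoxifen-inducible Cre recombinase, CreERT2, driven by the Cdh5 promoter, which is active in endothelium throughout the body. The controls were littermates without the Cre transgene that received the same tamoxifen according to the methods, although their treatment label reads untreated. Each genotype had 2 libraries. The p-values of the gene tests below rest on the spread between libraries, estimated for each gene with information shared across all genes tested. A gene could therefore pass although its own libraries differed widely. The libraries held 69636600 and 78953446 UMIs in the mutants and 83453507 and 85899079 UMIs in the controls.

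Metaphyseal, or type H, capillaries run as columns towards the growth plate, stain strongly for endomucin (Emcn) and CD31, respond to VEGF, and lie beside bone-forming cells. Capillary endothelium also takes up fatty acids, for which it uses the lipase anchor GPIHBP1, the scavenger receptor CD36 and the fatty-acid-binding proteins FABP4 and FABP5. LATS kinases phosphorylate the coactivators YAP1 and TAZ, which keeps them out of the nucleus. Where they are active, YAP1 and TAZ bind TEAD transcription factors on targets such as Ccn1 and Ccn2.

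TEAD proteins recognize the letters GGAATG on either strand (CATTCC on the other), so the promoters of YAP1/TAZ target genes that rose in the capillary ECs were searched for them. Of 5 such genes, Ccn1, Crim1 and Gadd45b were matched in the table of RefSeq promoters used here (GRCm38.p6), and Ccn2 and Angpt2 were not. Ccn1 and Crim1 held the letters in the window of 300 bases around the start site, and Gadd45b did not. The letters were also found in 14.7% of all 32851 promoter windows and in 11.3% of the 4035 windows of genes tested here. The 250 bases before each start site are printed 5′ to 3′ on the strand of the gene, with the match in capitals. The Ccn1 stretch is chr3:145649986-145650235 on the minus strand, and its match begins 103 bases before the start site. The Crim1 stretch is chr17:78199998-78200247 on the plus strand, and its match begins 79 bases before the start site.
Ccn1: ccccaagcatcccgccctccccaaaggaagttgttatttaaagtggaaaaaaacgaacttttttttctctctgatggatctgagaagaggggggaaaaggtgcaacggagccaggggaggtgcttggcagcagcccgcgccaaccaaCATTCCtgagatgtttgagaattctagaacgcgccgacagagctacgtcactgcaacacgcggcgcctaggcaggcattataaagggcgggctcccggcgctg
Crim1: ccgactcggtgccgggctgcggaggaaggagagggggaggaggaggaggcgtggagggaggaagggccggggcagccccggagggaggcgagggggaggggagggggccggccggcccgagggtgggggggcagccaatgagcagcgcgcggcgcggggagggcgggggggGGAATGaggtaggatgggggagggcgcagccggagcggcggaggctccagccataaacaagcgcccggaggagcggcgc

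The gate held a smaller share of mutant ECs than of control ECs, and this rested on the Apln and Vwf terms. Capillary ECs made up 6.75% (95% exact binomial interval 4.80 to 9.19) and 6.03% (4.36 to 8.09) of ECs in the mutants. They made up 13.9% (11.6 to 16.4) and 14.5% (12.2 to 17.1) in the controls. These intervals cover counting error only. The difference of 7.81 percentage points (control minus mutant) had a 2-sided exact permutation p of 0.333, which is the smallest that 2 libraries against 2 can give. Without the Apln and Vwf terms the gate took 124 and 162 mutant ECs and 157 and 157 control ECs. That was 22.6% and 23.8% of mutant ECs against 18.7% and 18.8% of control ECs, so the order of the genotypes reversed. The same terms removed 70.2% and 74.7% of the cells of this wider gate in the mutants but 25.5% and 22.9% in the controls.

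**Figure D1:**
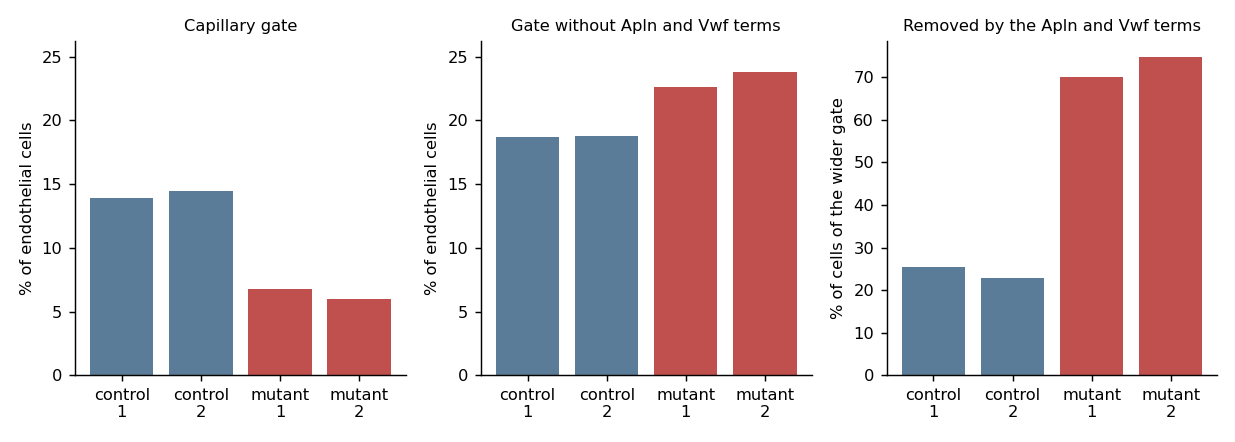
Capillary ECs under the gate and under the wider gate. Bars give, for each of the 4 libraries, the percentage of ECs in the gate, the percentage in the gate without its Apln and Vwf terms, and the percentage of the wider gate that these terms removed. The mutant bars are the lower ones in the left panel (6.75% and 6.03% against 13.9% and 14.5%) and the higher ones in the other panels.

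Of the ECs with at least 2 UMIs over Aplnr and Gpihbp1, 38.5% and 42.3% of the mutant cells held an Apln UMI, against 12.9% and 10.9% of the control cells. More than 1 UMI of Vwf, the gene of the clotting factor that marks venous and arterial endothelium, occurred in 17.8% and 19.2% of these cells against 7.12% and 6.75%. Stab2 moved the other way, with a UMI in 34.8% and 34.9% of the mutant cells against 51.9% and 52.0% of the control cells. These values chose the members and were not tested. In the wider gate, Apln stood at 685 and 795 CPM (counts of a gene scaled to 1000000 UMIs summed over the cells of a library, replicate 1 given before replicate 2 throughout) in the mutants and at 81.3 and 34.3 CPM in the controls. The capillary ECs described below are therefore Apln-negative cells, and such cells were a smaller part of the wider gate in the mutants than in the controls.

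The genes that defined the cells were in different proportions in the genotypes. Both Aplnr and Gpihbp1 gave a UMI in 29.7% and 46.3% of mutant capillary ECs and in 64.1% and 60.3% of control capillary ECs. Cells with Gpihbp1 and no Aplnr UMI made up 67.6% and 41.5% of the mutant cells and 25.6% and 34.7% of the control cells. Aplnr without Gpihbp1 was found in 2.703% and 12.2% of mutant cells and in 10.3% and 4.96% of control cells. Aplnr (chromosome 2, 84966569 to 84970267, plus strand, GRCm39) stood at 146 and 285 CPM in the mutants and at 397 and 310.3 CPM in the controls. Gpihbp1 (chromosome 15, 75468474 to 75471331, plus strand) stood at 1004 and 1235 CPM against 732 and 919 CPM. Both genes chose the members and were not tested. Cdh5, which all ECs had to carry, stood at 924 and 1160.3 CPM against 953 and 929.5 CPM, with the control values between those of the mutants.

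Cells just inside and just outside the limit of 2 UMIs were few and showed no common order. Exactly 2 UMIs over Aplnr and Gpihbp1 were held by 10 and 4 mutant cells and by 18 and 25 control cells, whose Emcn level was 1032 and 641 CPM in the mutants and 1254 and 819 CPM in the controls. Cells that met the other terms but held 1 UMI numbered 6 and 7 in the mutants and 18 and 32 in the controls, and their Emcn level was 887 and 2076 CPM and 810.1 and 1019 CPM. Emcn was thus higher just inside the limit in replicate 1 of each genotype and higher just outside it in replicate 2 of each.

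The markers that the gate did not read were present. Emcn, a sialomucin of capillary and sinusoidal endothelium, gave a UMI in 94.6% and 95.1% of mutant and in 97.4% and 95.04% of control capillary ECs. Among chondrocytes, which should lack it, at most 1.96% of cells in any library gave an Emcn UMI, but the other ECs did so in 81.2% and 80.1% of mutant and 87.4% and 87.1% of control cells. With every cell thinned to 2000 UMIs, the shares were 83.3%, 60.5%, 85.5% and 86.3% of capillary ECs and 62.3%, 63.5%, 71.5% and 71.9% of other ECs (mutant replicates 1 and 2, then control replicates 1 and 2), so that the capillary share was the lower one in mutant replicate 2. Its level was 1004 and 911 CPM in the mutants and 1316 and 1312 CPM in the controls, a log2 fold change of -0.44 ± 0.15 (SE, 2 libraries per genotype) with an adjusted p of 0.087 by edgeR's quasi-likelihood test. Without the cells that carried markers of other cell types (described next), the adjusted p was 0.029. Ramp3, which encodes an accessory protein of calcitonin-family receptors, was listed at 122 and 78.3 CPM against 146 and 208 CPM, with adjusted p = 0.065 and, without those cells, 0.031. The cells thus carried Emcn, which most other ECs carried too, and a Ramp3 UMI was found in only 43.2% and 29.3% of mutant and in 41.0% and 54.5% of control cells.

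A few cells carried RNA of neighbouring bone cell types. Cells in which markers of other types exceeded 1% of UMIs numbered 2 of 37 and 1 of 41 in the mutants and 6 of 117 and 5 of 121 in the controls. Osteoblast markers summed to 514 and 599 CPM in the mutants (9 and 6 of 9 markers with a UMI) and to 42734 and 24437 CPM in the controls (9 of 9 in each), and in the controls these 11 cells held 97.4% and 97.4% of the UMIs of Bglap, the gene of osteocalcin. Bglap was not confined to such cells, since 43.2% and 36.6% of mutant and 75.2% and 75.2% of control capillary ECs held a UMI of it. Without the cells over 1% other markers it stood at 88.2 and 61.8 CPM in the mutants and at 335 and 289 CPM in the controls. Chondrocyte markers summed to 6222 and 872 CPM in the mutants and to 355 and 883 CPM in the controls, with 8 of 8 seen in each. In mutant replicate 1, 2 cells held 98.98% of the UMIs of Col10a1, which is made by hypertrophic chondrocytes. Col10a1 was not confined to them, since 32.4% and 51.2% of mutant and 13.7% and 16.5% of control capillary ECs held a UMI of it. Without the cells over 1% other markers it stood at 53.9 and 253 CPM in the mutants and at 26.9 and 34.8 CPM in the controls. Leukocyte markers were at or near 0, from 0 to 28.5 CPM, and mural cell markers summed to 1300 and 819 CPM against 259 and 358 CPM. Lymphatic markers summed to 383 CPM in mutant replicate 1 (4 of 6 with a UMI) and to 7.12 to 31.2 CPM in the other 3 libraries. Erythroid and megakaryocyte markers summed to 578 and 497 CPM in the mutants and to 185 and 408 CPM in the controls. Reticular cell markers, at 1659 to 2307 CPM, and fibroblast markers, at 24.9 to 80.0 CPM, completed the 8 lists. The part of these cell types in the results below was not tested. Of the markers of 8 other cell types, 5 of 5 osteoblast genes tested were lower in the mutants (4 of 5 without those cells) and 1 of 4 chondrocyte genes was higher, while 2 reticular genes did not pass and the other 5 lists had no gene to test.

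Cre-ERT2 RNA was found in the mutant capillary ECs, and the fall in Lats2 RNA passed the test in the wider gate and in the other ECs but not in the capillary ECs. Cre-ERT2 UMIs were found in 5 of 37 and 9 of 41 mutant capillary ECs and in 0 of 238 control cells, which allows a share of up to 1.26% of cells with a UMI, not of cells that express the gene. Among the other ECs it gave a UMI in 162 of 511 and 186 of 639 mutant cells and in 3 of 724 and 2 of 714 control cells. Its level in the wider gate was 65.8 and 66.1 CPM in the mutants and 3.61 and 4.63 CPM in the controls. Lats2 (chromosome 14, 57926960 to 57995845, minus strand) stood at 82.3 and 96.1 CPM in the mutants and at 137 and 124 CPM in the controls. Every mutant library was below both control libraries, with a log2 fold change of -0.53 ± 0.24 and an adjusted p of 0.20. The log2 fold change was -0.40 in the wider gate (adjusted p = 0.041) and -0.29 in the other ECs (adjusted p = 0.0038). A Lats2 UMI was seen in 37.8% and 51.2% of mutant and in 49.6% and 52.1% of control cells. The 3′ tags count RNA from the whole gene, so an allele that lost some exons and is still transcribed cannot be told apart from an intact one. Its paralog Lats1 stood at 27.7 and 28.5 CPM against 31.2 and 29.9 CPM, under the filter on low counts. The reporters tdTomato and eGFP, also in the reference, had no UMI in any of the 316 cells, which in the same sense allows up to 0.949% of cells with a UMI.

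The genotype comparison covered 5136 genes that the gate did not read. Of these, 206 (4.01%) were higher and 266 (5.18%) were lower in the mutants at an adjusted p of at most 0.05. The median log2 fold change over all tested genes was 0.00. Without the cells over 1% other markers, 246 of 5053 genes (4.87%) were higher and 310 (6.13%) were lower. In the wider gate, which holds the Apln-positive and Vwf-positive cells and more mutant UMIs, 985 of 6563 genes (15%) were higher and 1045 (15.9%) were lower. The number of calls moved with the libraries and the method used. DESeq2 called 209 genes, against 472 by edgeR. The lists described next are read against these shares.

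Most tested genes of the list for fatty-acid and lipoprotein handling, which also holds water channel and caveolar genes, were higher in the mutants. The lipase genes Lpl and Lipg were under the filters and not tested. Of 18 genes on this list, 13 were tested, 10 rose and none fell, and the median log2 fold change was 1.24. Among those that rose, Meox2 and Tcf15 met the filter on cells through the mutants alone, which tilts the count and the median upward. Fabp4 (chromosome 3, 10268785 to 10273737, minus strand), which encodes a cytosolic carrier of fatty acids, stood at 10509 and 10322 CPM in the mutants and at 3112 and 3194 CPM in the controls. With means of 10415 ± 132 and 3153 ± 58.1 CPM (SD, n = 2 libraries each), the genotypes lay far outside each other's spread, with a log2 fold change of 1.74 ± 0.13 and an adjusted p of 1.4e-07 by edgeR's quasi-likelihood test. Its neighbour on the same chromosome, Fabp5 (10077602 to 10081674, plus strand), which encodes a related carrier, stood at 1106 and 1189 CPM against 85.4 and 125 CPM, a log2 fold change of 3.46 ± 0.19. Cd36, the fatty-acid uptake receptor, stood at 1129.9 and 1143 CPM against 419 and 441 CPM.

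The transcription factor genes Meox2 and Tcf15 were higher as well. So were Cav1, Cavin1 and Cavin2, coat genes of caveolae, the small membrane pits of capillary endothelium. Meox2 stood at 221 and 196 CPM in the mutants and at 101.4 and 58.5 CPM in the controls (log2 fold change 1.38 ± 0.26). Its partner Tcf15 stood at 154 and 203 CPM against 51.5 and 83.0 CPM (1.42 ± 0.26). A Meox2 UMI was found in 29.7% and 39.0% of mutant and in 16.2% and 9.92% of control cells. For Tcf15 the shares were 37.8% and 46.3% against 15.4% and 24.0%. With the controls pooled, both genes met the filter on cells through the mutants alone, which favours rises. MEOX2 and TCF15 act as a pair that drives fatty-acid uptake genes in heart capillaries. Cav1, the main caveolar coat gene, stood at 861 and 1274 CPM against 466 and 463 CPM, and Cavin2 at 509.6 and 694 CPM against 276 and 235 CPM. Aqp1, a water channel, Cavin1 and Angptl4, a secreted inhibitor of lipoprotein lipase, also passed the test, and Angptl4 was high in mutant replicate 1 (249 CPM) and at 49.8 CPM in mutant replicate 2 beside 43.4 and 47.6 CPM in the controls. Pparg, the nuclear receptor for fatty acids, did not pass (198 and 231 CPM against 189.8 and 167 CPM, adjusted p = 0.41), nor did Rgcc (557 and 1007 CPM against 522 and 535 CPM) or Cav2 (269 and 249 CPM against 139.6 and 193 CPM).

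The rise in Fabp4 was uneven across cells. Fabp4 had no UMI in 21.6% and 17.1% of mutant capillary ECs and in 21.4% and 24.8% of control capillary ECs. Per 10000 UMIs of a cell, the median was 39.1 and 61.0 in the mutants and 9.61 and 10.9 in the controls, and the 90th percentile was 229 and 189 against 106 and 110.03. The highest cells reached 369.7 and 300.04 in the mutants and 333 and 362 in the controls. The genotypes thus shared the range, and the mutant libraries held more of the cells in its upper part. In chondrocytes, 11.4% to 19.6% of cells per library gave a Fabp4 UMI, against 75.2% to 82.9% of capillary ECs. With every cell thinned to 2000 UMIs, the shares were 2.17% to 4.64% of chondrocytes and 65.0% to 73.7% of capillary ECs. The other ECs lay above every capillary library, at 75.7% to 79.7%, so a Fabp4 UMI was no mark of the capillary ECs.

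The changes of the lipid list depended in part on the Apln and Vwf terms. In the wider gate 7 of its 13 genes rose and 1 fell, the median log2 fold change was 0.43, and Tcf15 stood at -0.26. Fabp4 and Fabp5 kept their direction there, with log2 fold changes of 0.82 and 1.89, while Cd36 was at 0.27 with adjusted p = 0.10. Leaving out the cells over 1% other markers left the list at 11 of 13 genes higher and a median of 1.23.

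**Figure D2:**
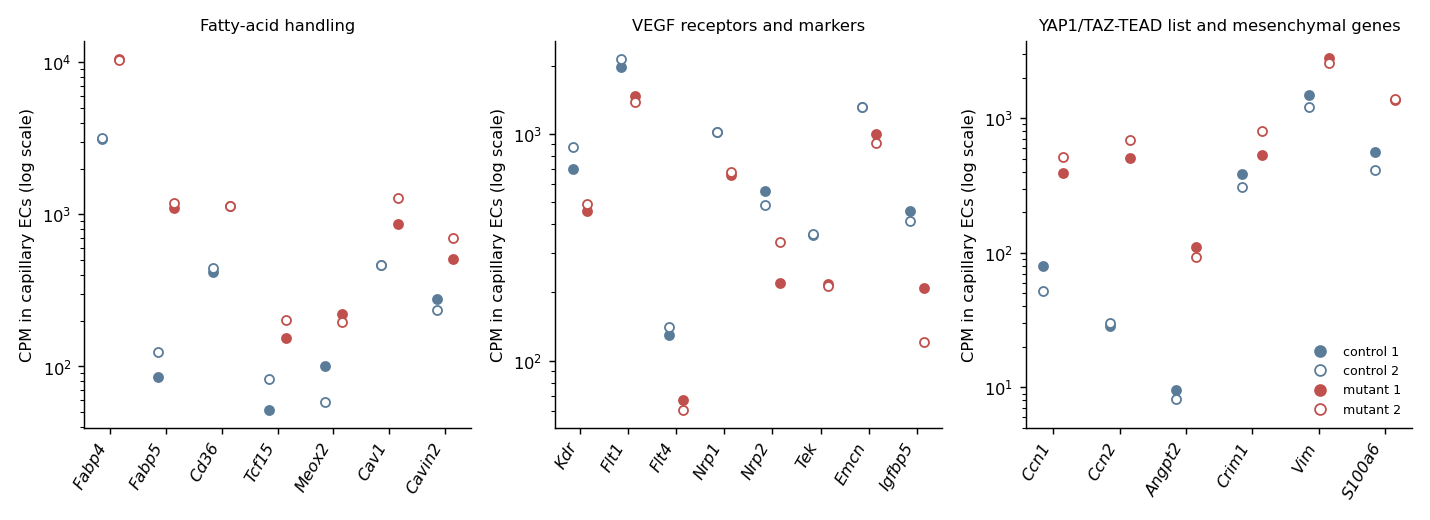
Levels of 21 genes in the capillary ECs of each library, in CPM on a log axis, with filled points for replicate 1 and open points for replicate 2 of each genotype. Fatty-acid and caveolar genes lay higher in the mutants (Fabp4 10509 and 10322 against 3112 and 3194 CPM), VEGF receptor genes lay lower (Kdr 458 and 491 against 702 and 875 CPM), and Ccn2 and Angpt2 were the farthest apart in the right panel.

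VEGF receptors and their co-receptors were lower. Of 16 genes on the VEGF list 11 were tested, 6 fell and none rose, with a median log2 fold change of -0.52. Kdr (chromosome 5, 76093487 to 76139884, minus strand), which encodes VEGFR2, the main signalling receptor for VEGF-A, stood at 458 and 491 CPM in the mutants and at 702 and 875 CPM in the controls. Its log2 fold change was -0.72 ± 0.16 (adjusted p = 0.0088, edgeR). A Kdr UMI was found in 67.6% and 87.8% of mutant against 91.5% and 90.9% of control cells, and the median per 10000 UMIs of a cell was 3.64 and 4.80 against 6.82 and 8.71. Mutant replicate 1 was the lower of the mutants by each measure, and both were below both controls.

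The other 5 genes of this list that fell encode receptors or co-receptors of VEGF or semaphorin ligands. Flt1 (VEGFR1, which traps VEGF-A) stood at 1462 and 1379 CPM against 1979 and 2139 CPM. Flt4 (VEGFR3, the receptor for VEGF-C) stood at 67.2 and 60.5 CPM against 130.1 and 142 CPM. Nrp1, a co-receptor, stood at 659.8 and 676 CPM against 1021 and 1017 CPM, and Nrp2 at 221 and 335 CPM against 558 and 486 CPM. Plxnd1, the semaphorin receptor, stood at 273 and 256 CPM against 375 and 412 CPM. The log2 fold changes of the 6 genes that fell ran from -0.52 for Flt1 to -1.08 for Flt4. Ptprb, a phosphatase of the VEGF and angiopoietin receptors (1221 and 1214 CPM against 1158 and 1191 CPM), Robo4 (162 and 167 CPM against 153 and 189 CPM) and Vegfc (138 and 125 CPM against 133 and 152 CPM) did not pass. With the wider gate 6 genes of the list were lower and 2 were higher, with a median of -0.51, and Kdr stood at -0.97.

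Genes listed as markers of metaphyseal capillaries went both ways. Of 15 genes 12 were tested, of which 5 fell and 2 rose, with a median log2 fold change of -0.48. Igfbp5, a secreted binding protein of insulin-like growth factors, stood at 209 and 121 CPM in the mutants and at 458 and 415 CPM in the controls (-1.40 ± 0.22). Insr, the insulin receptor gene, stood at 189.6 and 235 CPM against 336 and 493 CPM, and Prcp, a lysosomal peptidase gene, at 115 and 160.2 CPM against 291 and 208 CPM. Kdr and Flt1, given above, completed the 5. Igfbp3, of the same family as Igfbp5, went the other way, at 794 and 893 CPM against 409 and 446 CPM, and Tmem252 rose from 24.4 and 10.9 CPM in the controls to 94.8 and 67.6 CPM. Plvap, the gene of the diaphragms of fenestrated capillaries, stood at 979.8 and 1167 CPM against 838 and 1172 CPM, with overlapping genotypes, and Dll4 stood at 103 and 81.9 CPM against 102 and 109 CPM. When the cells over 1% other markers were left out, 7 genes of this list fell and 2 rose. The wider gate gave 7 of 14 lower and 3 higher.

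Of 20 core endothelial genes, all tested, 3 fell and 1 rose (4 and 1 without the cells over 1% other markers), and the median was -0.17. Cells of the wider gate had 9 of the 20 lower and 2 higher (15.9% and 15% over all genes), with a median of -0.13. Tek, which encodes the angiopoietin receptor TIE2, fell from 359 and 362 CPM to 217 and 214 CPM (log2 fold change -0.73), and its partner Tie1 fell from 308 and 338 CPM to 166 and 235 CPM. The transcription factor gene Ets1 fell from 820.0 and 859 CPM to 545 and 534 CPM, while Sox17 rose from 122 and 113 CPM to 205 and 238 CPM. Erg (178 and 167 CPM against 205 and 195 CPM), Cldn5 and Eng did not pass.

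Some YAP1/TAZ-TEAD target genes were higher, led by Ccn2. Of 21 genes 11 were tested, 5 rose, 1 fell and 5 did not pass, and the median log2 fold change was 0.96. Ccn1, Ccn2 and Angpt2 met the filter on cells through the mutants alone, which tilts the count and the median upward. In the controls their UMIs were found in 18.8% and 18.2%, in 14.5% and 13.2%, and in 5.98% and 4.13% of cells. Ccn2 (chromosome 10, 24471333 to 24474900, plus strand), which encodes a secreted matricellular protein, stood at 509.6 and 691 CPM in the mutants and at 28.5 and 29.9 CPM in the controls. Its log2 fold change of 4.36 ± 0.22 (adjusted p = 1.0e-09) was the largest increase that met the naming rule. A few cells held much of it. In mutant replicate 1, the 2 cells over 1% other markers held 71.3% of its UMIs, and without such cells Ccn2 stood at 181 and 712 CPM in the mutants and at 28.5 and 33.3 CPM in the controls (log2 fold change 3.94, adjusted p = 2.3e-06). The wider gate gave a smaller log2 fold change of 2.68, with Ccn2 at 643 and 669.5 CPM against 89.4 and 119 CPM.

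A Ccn2 UMI was nonetheless found in 45.9% and 36.6% of mutant and in 14.5% and 13.2% of control capillary ECs. Chondrocytes, which make Ccn2, gave one in 67.4% to 86.5% of cells. With each cell thinned to 2000 UMIs (36, 38, 110 and 117 cells deep enough), the shares of capillary ECs were 27.8% and 23.7% against 7.27% and 5.98%. The 90th percentile per 10000 UMIs was 6.77 and 12.9 in the mutants and 1.19 and 1.01 in the controls, and 1 cell of mutant replicate 2 reached 132.

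Ccn1, of the same family and with the promoter printed above, stood at 391 and 516 CPM against 80.0 and 51.7 CPM (2.79 ± 0.22). Angpt2, which encodes the ligand that destabilizes vessels through TIE2, stood at 111 and 92.5 CPM against 9.49 and 8.17 CPM (3.49 ± 0.36). Crim1, a transmembrane regulator of BMP ligands and the other printed promoter, stood at 529 and 808 CPM against 385 and 306 CPM (0.96 ± 0.19), and the stress sensor Gadd45b at 217 and 203 CPM against 61.0 and 83.0 CPM. Asap1 fell, from 737 and 785 CPM to 450.4 and 473 CPM. Thbs1, which encodes thrombospondin 1, overlapped between genotypes (94.8 and 125 CPM against 59.6 and 98.0 CPM, adjusted p = 0.31) and passed the test without the cells over 1% other markers (log2 fold change 1.33, adjusted p = 0.0046), where 7 of the 11 genes rose and the median was 1.32. Thbs1 stood in the wider gate at 761 and 641 CPM against 108 and 86.2 CPM (2.87, adjusted p = 5.3e-07), and in the other ECs its log2 fold change was 1.82 (adjusted p = 5.3e-07). Of 12 genes of the list tested in the wider gate 9 rose and 2 fell.

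**Figure D3:**
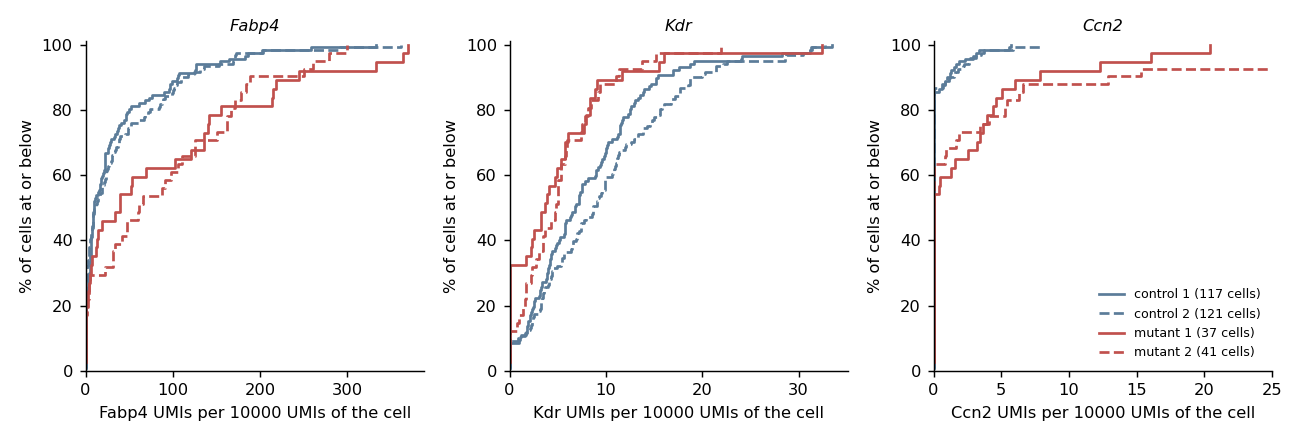
Cumulative share of capillary ECs against the UMIs of Fabp4, Kdr and Ccn2 per 10000 UMIs of the cell, with 1 line for each library. At the median the mutant lines lie to the right of the control lines for Fabp4 (39.1 and 61.0 against 9.61 and 10.9) and to the left for Kdr, and at the 90th percentile they lie to the right for Ccn2. For Fabp4 the genotypes are not separated at 0 or at the highest cells. The Ccn2 axis ends before the highest cell of mutant replicate 2, which stood at 132.

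Of 20 genes of the Hippo pathway itself 15 were tested, none rose and 1 fell. In the wider gate 5 of 16 fell and 1 rose, beside 15.9% and 15% of all genes tested there. Amotl1, an angiomotin that binds YAP1, stood at 111 and 164 CPM against 236 and 233 CPM. It was also lower in the other ECs (log2 fold change -0.52, adjusted p = 7.8e-05), as was Lats1 (-0.46, adjusted p = 0.0042). Yap1 stood at 51.4 and 89.0 CPM against 61.0 and 55.8 CPM, and Wwtr1, which encodes TAZ, at 565 and 694 CPM against 584 and 472 CPM. Neither passed the test, and the genotypes overlapped for both.

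Mesenchymal genes were divided. Of 22 genes 11 were tested, 5 rose and 5 fell, and the median was 0.47. The counts were 4 and 4, and the median 0.15, without the cells over 1% other markers, and 5 and 4 with a median of 0.04 in the wider gate. Among those that rose were Vim (vimentin, 2781 and 2577 CPM against 1476 and 1215 CPM) and the calcium-binding genes S100a6 (1359 and 1399 CPM against 558 and 411 CPM) and S100a4 (186 and 288 CPM against 70.5 and 29.9 CPM). The transcription factor genes Zeb1 (415 and 389.7 CPM against 867 and 802 CPM) and Zeb2 (86.9 and 117 CPM against 221 and 261 CPM) fell. Both encode repressors that are known for their part in epithelial-to-mesenchymal transition. Snai1 did not pass (79.0 and 60.5 CPM against 40.7 and 59.9 CPM). Fn1, the fibronectin gene, rose by the test, at 2268 and 199 CPM against 239.9 and 133 CPM. In mutant replicate 1, 93.9% of its UMIs lay in 2 cells, and without the cells over 1% other markers it stood at 172 and 202 CPM against 241 and 109 CPM with adjusted p = 0.79. It was high in both mutants in the wider gate, at 1586 and 1058 CPM against 271 and 122 CPM (2.77, adjusted p = 4.7e-05), and in the other ECs its log2 fold change was 0.89 (adjusted p = 0.00014). Col1a1 and Col1a2, the genes of type I collagen, fell by 6.15 and 5.57 on the log2 scale with all cells and by 2.78 without those cells for Col1a1, with -2.35 for Col1a2, beside the osteoblast markers given above, and the part of osteoblast RNA in them was not tested. Sparc did not pass without those cells (adjusted p = 0.12).

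Immediate early genes, which are transcribed within minutes of a stimulus, were higher almost throughout. Of 17 genes tested 14 rose (13 without the cells over 1% other markers) and none fell, and the median was 0.80. Fos stood at 1185 and 1207 CPM in the mutants and at 447 and 415 CPM in the controls (1.48 ± 0.15). Atf3 stood at 174 and 342 CPM against 69.1 and 47.6 CPM, Ier3 at 439 and 327 CPM against 127 and 143 CPM, and Btg2 at 695 and 548 CPM against 264 and 328 CPM. Nr4a1, Fosl2 and Klf6 did not pass. The same genes respond to tissue digestion. On the list of dissociation stress genes 5 of 13 rose, among them Fos, Jun and Egr1, which stand on both lists, together with Nfkbia, while the heat shock genes Hspa1a (564 and 335 CPM against 426 and 372 CPM) and Hspa1b did not pass. The latter genes are near-identical copies, and their reads were divided between them by estimation. Mitochondrial RNA took a median of 4.56% and 4.78% of UMIs per cell in the mutants and 4.14% and 4.16% in the controls, and median UMIs per cell were 4774 and 5833 against 4795 and 4646. The part of digestion in these changes was not tested. Of the 17 immediate early genes, 7 rose in the wider gate, where 6 of 13 dissociation stress genes rose and 3 fell. Over all genes tested there, 15% rose and 15.9% fell.

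The flow-responsive genes that rose, Klf2, Klf4 and Cav1, also stand on the immediate early or the lipid list. Klf2, which laminar flow induces in endothelium, stood at 984 and 1449 CPM against 484 and 716 CPM (log2 fold change 1.03 ± 0.20), and Klf4 at 502 and 392 CPM against 264 and 250.4 CPM. Of 9 genes tested 3 rose and 1 fell, or 4 and 2 without the cells over 1% other markers. In the wider gate 3 of 11 rose and 3 fell (15% and 15.9% over all genes). Heg1, a membrane protein gene of endothelial junctions, fell from 664 and 757 CPM to 494 and 402 CPM, and the mechanosensitive channel gene Piezo1 did not pass (265 and 217 CPM against 239.9 and 222 CPM). Klf2 stood at -0.13 and Klf4 at 0.00 in the wider gate, and neither passed.

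Some genes of glycolysis were higher. Of 24 genes of the hypoxia and glycolysis list 13 were tested, 6 rose, none fell and 7 did not pass, with a median of 0.71. Pgk1 stood at 92.2 and 129 CPM in the mutants and at 40.7 and 34.0 CPM in the controls (1.57 ± 0.28). Ldha, which converts pyruvate to lactate, stood at 277 and 292 CPM against 141 and 154 CPM, and Gapdh at 442 and 491 CPM against 260.2 and 314 CPM. Eno1, Tpi1 and Pfkl were the other 3. Ndrg1, a gene induced by hypoxia, stood at 273 and 217 CPM against 255 and 263 CPM and did not pass, nor did Hk1 (79.0 and 92.5 CPM against 51.5 and 73.5 CPM). In the wider gate 13 of 17 genes rose and the median was 1.23.

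Of 17 sinusoidal and venous genes 10 were tested, in cells that the gate had cleared of Stab2 UMIs. Of these, 4 fell and none rose, and the median was -0.44. Of 11 tested in the wider gate 5 fell and 2 rose (15.9% and 15% over all genes), with a median of -0.16. Mrc1, the mannose receptor of sinusoidal endothelium and macrophages, gave 0 and 1 UMI in the mutants and 61 and 29 UMIs in the controls, which is 0 and 3.56 CPM against 82.7 and 39.5 CPM. The ratio of control to mutant was 32.6 with a 95% counting interval of 5.7 to 1303. An Mrc1 UMI was held by 24.8% and 16.5% of control against 0% and 2.44% of mutant cells. Mrc1 thus met the filter on cells through the controls alone, which favours a fall in the count. The gate removed only cells with a captured Stab2 UMI. The part of sinusoidal cells without one in the falls of this list was not tested. Stab1 stood at 119 and 92.5 CPM against 217 and 203 CPM, and Tfpi, the gene of tissue factor pathway inhibitor, at 130.4 and 71.2 CPM against 229 and 295 CPM. Flt4 was the fourth. Il6st (225 and 263 CPM against 188 and 176 CPM), Nr2f2 and Ephb4 did not pass.

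Of the angiogenic tip cell genes, which mark the leading cells of sprouts, 15 were tested in the gated cells. Of these, 3 rose (Angpt2, Igfbp3 and Sox17) and none fell, with a median of 0.27, while in the wider gate 15 of 21 rose with a median of 0.83. The counts of the gates cover unlike sets of genes, since more genes met the filter in the wider gate. A gene could meet it through the mutants alone, which favours rises. Without the cells over 1% other markers 3 rose and 1 fell in the gated cells. Genes of sprouting cells that could be tested only in the wider gate were Adm, the adrenomedullin gene (69.8 and 64.0 CPM against 7.23 and 4.63 CPM, log2 fold change 3.49), and Nox4, an oxidase gene (422 and 370.5 CPM against 55.6 and 14.8 CPM). In the capillary ECs these 2 genes stood at 0 and 3.56 CPM against 2.71 and 4.08 CPM, and at 35.6 and 32.0 CPM against 21.0 and 10.9 CPM. Edn1, which encodes the vasoconstrictor endothelin 1, stood at 86.9 and 85.4 CPM against 10.8 and 5.44 CPM in the capillary ECs, where it was under the filter, and at 199 and 242 CPM against 33.4 and 19.5 CPM in the wider gate (3.08, adjusted p = 2.0e-06).

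The matrix and adhesion lists had medians near 0, with genes called in both directions. Of 28 basement membrane and matrix genes tested, 6 rose (21.4%, against 4.01% of all genes) and 4 fell (14.3%, against 5.18%), with a median of -0.02. Without the cells over 1% other markers, 4 rose and 3 fell. Of 29 tested in the wider gate 13 rose and 4 fell, with a median of 0.27. Col4a1, of type IV collagen, stood at 1964 and 2378 CPM against 1799 and 1826 CPM in the capillary ECs (adjusted p = 0.30) and passed in the wider gate (log2 fold change 0.54, adjusted p = 0.0010). In the capillary ECs Lamb1 stood at 138 and 125 CPM against 141 and 127 CPM, and Hspg2 at 561 and 637 CPM against 598 and 699.5 CPM. Col15a1 rose (229 and 424 CPM against 184 and 165 CPM), as did Sparcl1 (822 and 997 CPM against 390.4 and 427 CPM). In mutant replicate 1, 2 cells held 92.9% of the UMIs of Mgp. Mgp, Fn1, Adamts1, Sparc and Serpinh1 passed with all cells and not without the cells over 1% other markers. Of 22 integrin and focal adhesion genes 5 rose (22.7%) and 4 fell (18.2%), with a median of 0.01, and without those cells 3 rose and 3 fell. Of 26 tested in the wider gate 11 rose and 4 fell, with a median of 0.26. On both lists the share of falls in that gate was near the share over all genes. Vcl (vinculin, 312 and 246 CPM against 125 and 128 CPM) and S100a10 (829.7 and 712 CPM against 349.7 and 316 CPM) rose, and Itga2 (51.4 and 35.6 CPM against 86.7 and 161 CPM), Itga9 (90.9 and 132 CPM against 228 and 222 CPM) and Ptk2, the focal adhesion kinase gene, fell. Of the 5 that rose, Cd9, Anxa1 and Anxa2 did not pass without the cells over 1% other markers, nor did Cd63 among those that fell.

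In the remaining lists at most 4 genes were called in either direction, on lists of 6 to 17 genes tested. Of 17 cytoskeletal targets of SRF 4 rose (23.5%), namely Actg1, Tagln2, Vcl and Csrp1 (269 and 267 CPM against 109.8 and 117 CPM), and none fell, while 13 of 18 rose in the wider gate. Of 10 Notch genes the targets Hes1 (450.4 and 388 CPM against 247 and 201 CPM) and Nrarp (86.9 and 146 CPM against 44.7 and 54.4 CPM) rose, and the receptor genes Notch1 and Notch4 did not pass. Of the same 10 genes 2 rose and 1 fell without the cells over 1% other markers. Of 16 TGF-β and BMP genes 1 rose, and the receptor genes Tgfbr2 (249 and 235 CPM against 390.4 and 529 CPM) and Bmpr2 (245 and 274 CPM against 409 and 393 CPM) fell. Of 13 arterial genes 3 rose (Sox17, Clu and Mgp, 23.1%) and none fell with all cells, 2 rose and 2 fell without the cells over 1% other markers, and 2 of 14 rose and 8 fell in the wider gate. Of 11 genes of secreted signals Angpt2 rose and Tnfsf10 fell (2 rose and 1 fell without those cells), and in the wider gate 9 of 21 rose and 4 fell. Cxcl12 (1146 and 737 CPM against 1228 and 1387 CPM), Pdgfb and Kitl did not pass. Of 12 interferon and MHC genes Ifitm3 (1738 and 1676 CPM against 1052 and 1179.9 CPM) rose and Rsad2 (103 and 74.7 CPM against 211 and 259.9 CPM) fell. Of 6 cell cycle genes Ccnd1 (174 and 178 CPM against 90.8 and 77.6 CPM) and the inhibitor gene Cdkn1a rose (33.3%) and the inhibitor gene Cdkn1c fell (16.7%). In the wider gate 1 of 11 Notch genes rose and 3 fell, and 2 of 17 TGF-β and BMP genes rose and 4 fell. There, none of 13 interferon and MHC genes rose and 3 fell, and 1 of 7 cell cycle genes rose and 2 fell. Over all genes tested in that gate 15% rose and 15.9% fell, and several of these counts lay near those shares.

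**Figure D4:**
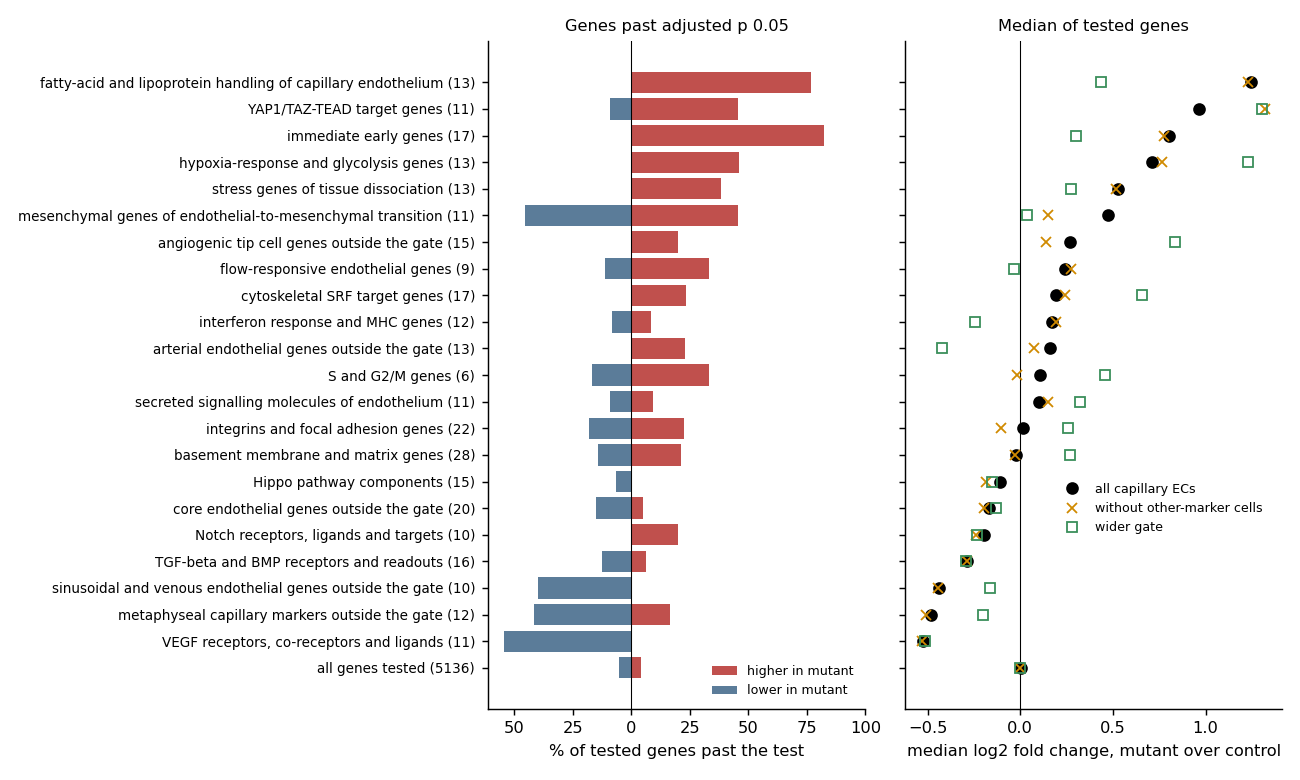
Gene lists in the capillary ECs, with the number of genes tested in parentheses. The left panel gives the percentage of tested genes past an adjusted p of 0.05 in each direction, and the right panel the median log2 fold change (mutant over control) in all capillary ECs, without the cells over 1% other markers, and in the wider gate. The lipid list has the highest median in all capillary ECs (1.24) and the VEGF list the lowest (-0.52), beside 0.00 for all genes.

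The largest increases that met the naming rule, besides Ccn2, Angpt2, Fabp5 and Ccn1, were led by Ptprr, a phosphatase gene, at 79.0 and 42.7 CPM against 6.10 and 9.53 CPM. Rnd1, a small GTPase gene, stood at 71.1 and 146 CPM against 9.49 and 19.1 CPM. Depp1, a gene induced by FOXO factors, rose from 33.9 and 29.9 CPM to 169.9 and 182 CPM. Pdlim1, Tspan2, Cldn15 and S100a4, the last also on the mesenchymal list, had log2 fold changes of 2.19 to 2.30. S100a4 UMIs were found in 29.7% and 29.3% of mutant and in 10.3% and 9.92% of control cells. Like Ccn1, Ccn2 and Angpt2, it met the filter on cells through the mutants alone, and a ranking of increases favours such genes. The same held for Ptprr, Rnd1, Depp1, Tspan2, Cldn15 and Ank, the last given next, while Pdlim1 met the filter in both genotypes. UMIs of Ptprr, Rnd1 and Depp1 were found in 26.9%, 29.5% and 44.9% of mutant cells and in 5.04%, 7.56% and 11.3% of control cells. Ank, which encodes a pyrophosphate transporter, passed at 529 and 74.7 CPM against 66.4 and 49.0 CPM. In mutant replicate 1, however, 91.8% of its UMIs lay in 2 cells, and without the cells over 1% other markers its adjusted p was 0.83.

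Among the large decreases, those of Slco2a1 and Nav3 changed little when the cells over 1% other markers were left out. Slco2a1 (chromosome 9, 102865911 to 102973201, plus strand) encodes the transporter that takes up prostaglandins. It stood at 27.7 and 28.5 CPM in the mutants and at 243 and 206 CPM in the controls, and its UMIs were found in 10.8% and 9.76% of mutant and in 45.3% and 44.6% of control cells. Slco2a1 thus met the filter on cells through the controls alone, and a ranking of decreases favours such genes. The log2 fold change was -2.98 ± 0.30 (adjusted p = 8.5e-06) and -2.93 without the cells over 1% other markers, but -1.33 in the wider gate (103 and 99.1 CPM against 287 and 229 CPM). Nav3 (chromosome 10, 109517120 to 110292065, minus strand), which encodes a microtubule-binding protein, stood at 122 and 142 CPM against 867 and 657 CPM (-2.51 ± 0.21, with -2.53 without those cells and -1.95 in the wider gate), with UMIs in 27.0% and 34.1% against 70.1% and 78.5% of cells. In chondrocytes, 1.20% to 2.29% of cells per library gave a Slco2a1 UMI and 4.78% to 14.2% a Nav3 UMI.

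Other genes of this group were the splicing regulator gene Rbfox1 (27.7 and 10.7 CPM against 85.4 and 186 CPM), the guidance receptor gene Robo1 (51.4 and 7.12 CPM against 107 and 128 CPM), Trerf1 (59.3 and 46.3 CPM against 202 and 230.0 CPM) and Arhgap6 (23.7 and 32.0 CPM against 123 and 135 CPM). Coro2b, Lrp4, Crispld1, Flrt2 and Ppfia2 had log2 fold changes of -2.696 to -2.05. The fibrillar collagen genes Col11a1 and Col5a2 and the proteoglycan gene Dcn fell by 3.28, 2.82 and 2.14. In the controls 90.2% to 91.0% of Col11a1 UMIs and 73.1% to 84.6% of Col5a2 UMIs lay in the cells over 1% other markers, and without these the falls were 1.58, 1.21 and 1.17. Each of the 3 still passed. Leaving out these cells did not remove the osteoblast RNA in the other cells, as given above for Bglap. The part of that RNA in these falls was not tested.

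The genotype effect was then compared with that in the other 2588 ECs of the same libraries, by an interaction test with the library as a block. Of 6321 genes tested, 23 (0.364%) had a higher and 22 (0.348%) a lower effect in the capillary ECs. Without the cells over 1% other markers the counts were 17 of 6201 (0.274%) and 8 (0.129%). For most of the changes described above a difference in effect between the classes was not detected, which does not show that the effects were alike.

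The fatty-acid genes were among those whose effect was larger in the capillary ECs. Fabp4 stood at 7451 and 8137 CPM in the other mutant ECs and at 4693 and 4863 CPM in the other control ECs. Its log2 fold change there was 0.78, which is smaller by 0.97 ± 0.17 than in the capillary ECs (adjusted p = 0.0045). Fabp5 had 474 and 520 CPM against 107 and 99.8 CPM in the other ECs, and the effects differed by 1.15. Cd36 had 459 and 584 CPM against 469.5 and 434 CPM there, and the effects differed by 1.16. In the controls Fabp4 was lower in the capillary than in the other ECs, and in the mutants it was higher. With the wider gate in place of the capillary gate, the differences for Fabp4, Fabp5 and Cd36 were -0.01, -0.46 and -0.05, and none of the 3 passed.

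Pparg showed the largest contrast between the classes among the lipid genes. It fell in the other ECs, from 474 and 470.4 CPM to 174 and 197 CPM, and did not pass in the capillary ECs, so that the effects differed by 1.57 (adjusted p = 0.00019). Pparg also fell in the wider gate (-0.49, adjusted p = 0.013), and with that gate in place of the capillary gate the effects differed by 0.67 (adjusted p = 0.032). Ccn2 rose by 1.80 in the other ECs, from 109 and 156 CPM to 439 and 442 CPM, and the difference of 2.57 to the capillary effect had an adjusted p of 9.4e-06 with all cells and 0.057 without the cells over 1% other markers. Depp1 differed by 2.14 and Ptprr by 2.48. Hes1 differed by 0.81, with 0.91 in capillary ECs and 0.12 in other ECs, but without the cells over 1% other markers the adjusted p was 0.064, and with the wider gate the difference was -0.02.

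Among the genes with the lower effect in capillary ECs, Slco2a1 fell by 2.98 against 0.94 in the other ECs (147 and 144 CPM against 297 and 288 CPM there), a difference of -2.03 (adjusted p = 0.0018). Nav3 fell by 2.51 against 1.26, a difference of -1.23. Lifr, the receptor gene for leukemia inhibitory factor, stood at 130.4 and 149 CPM against 370.0 and 408 CPM in the capillary ECs and at 192 and 191 CPM against 237 and 212 CPM in the others, a difference of -1.29. All 3 passed as well without the cells over 1% other markers. With the wider gate in place of the capillary gate, the difference for Slco2a1 was -0.46 and did not pass (adjusted p = 0.11), while those for Nav3 (-0.64, adjusted p = 0.037) and Lifr (-0.91, adjusted p = 0.0056) were smaller in size and passed. For VEGF receptors no difference in effect was detected, with Kdr at -0.72 and -0.87 (adjusted p of the difference 0.86) and Nrp1 at -0.60 and -0.63 (0.96).

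**Figure D5:**
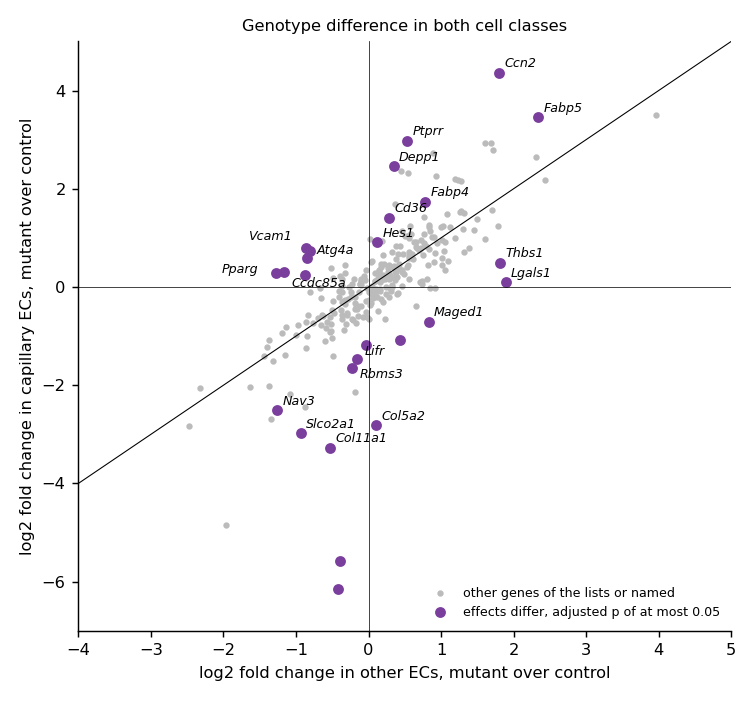
Log2 fold change (mutant over control) of the named genes and list members tested in both classes, in capillary ECs (vertical axis) and in other ECs (horizontal axis). The diagonal marks equal effects, and purple points are genes whose effects differed at an adjusted p of at most 0.05. Fabp4, Fabp5, Cd36 and Ccn2 lie above the line and Slco2a1, Nav3 and Lifr below it.

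The capillary ECs were also divided by whether they carried an Aplnr UMI, since that share differed between genotypes. Cells with an Aplnr UMI numbered 12, 24, 87 and 79 and cells without one 25, 17, 30 and 42 (mutant replicates 1 and 2, then control replicates 1 and 2). Fabp4 stood at 9699 and 12912 CPM against 3206 and 2343 CPM in the cells with Aplnr, and at 11235 and 4988 CPM against 2785 and 4772 CPM in the cells without. The genotypes did not overlap in either division, but in the cells without Aplnr, mutant replicate 2 was close to control replicate 2, and the test gave an adjusted p of 0.16 there. Ccn2 stood at 878 and 909 CPM against 29.7 and 25.1 CPM with Aplnr, and at 179.8 and 239.6 CPM against 24.3 and 38.8 CPM without. Nav3 stood at 176 and 179.8 CPM against 947 and 836 CPM with Aplnr, and at 74.9 and 65.3 CPM against 589.8 and 326 CPM without. Both passed the test in each division.

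Neither Emcn nor Kdr passed the test in either division. Emcn stood at 1062 and 814 CPM against 1394 and 1515 CPM in cells with Aplnr and at 951 and 1111 CPM against 1046 and 936 CPM in cells without, where the genotypes overlapped (adjusted p = 0.21 and 0.92). Kdr stood at 510.04 and 492 CPM against 675 and 918 CPM with Aplnr and at 412 and 490.1 CPM against 796 and 796 CPM without, and the mutants were below the controls in both (adjusted p = 0.15 and 0.085).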

How the data were processed

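Single-cell RNA-seq of bone metaphysis (10x Genomics 3′ chemistry) gave 4 libraries, 2 from Lats2iECKO mice and 2 from controls. The authors trimmed reads with cutadapt 3.5 and counted UMIs with STARsolo 2.7.10a on GRCm39 with the GENCODE M26 annotation and added Cre-ERT2, tdTomato and eGFP sequences. The values they deposited are expected counts of UMIs for each gene in each barcode, where reads that fit more than 1 gene were divided by expectation maximization, over exons and introns and for all barcodes. Between 9.09% and 9.95% of entries were not whole.

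Here barcodes were filtered and gated as given above, counts were summed per library and rounded, and genes were kept that passed edgeR's filterByExpr and were detected in 20% or more of a genotype's cells. Genotypes were compared by edgeR's quasi-likelihood test with TMM scaling and Benjamini-Hochberg adjustment over all genes tested, at an adjusted p of at most 0.05. Genes read by the gate and mitochondrial and hemoglobin genes were not tested. Capillary and other ECs were compared by an interaction term with the library as a block. The log2 fold changes are mutant over control. Errors beside them are SEs, and means carry SDs. No doublet caller was run, and cells over 1% markers of other types were left out as an alternative. Other alternatives were DESeq2, RLE scaling, no gene filter, a replicate block, other gates and leaving out each library. RNA outside cells was estimated at 1.76% to 3.20% of capillary UMIs. The fits were also run on simulated counts, whose outcome is not given here and is not used as evidence.

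The members and lists were chosen with earlier results of these data known. Named genes were the gate genes and the study's own metaphyseal genes. Added to these were up to 15 of the largest called changes in each direction (non-overlapping genotypes, at least 50 CPM). Up to 10 of the largest interactions in each direction were also named (at least 50 CPM, overlap allowed). Of each list, up to 4 called members and 3 others were named. A few genes that the rule names are not reported here. Further list members given with values were chosen after their values were seen. The split by Aplnr and the per-cell genes were chosen after values were seen. Coordinates are GRCm39 from GENCODE M39, and promoters are from RefSeq (GRCm38.p6). Tools were Python 3.11.15, numpy 2.4.6, scipy 1.17.1, pandas 2.3.3, R 4.3.3, edgeR 4.0.16, limma 3.58.1 and DESeq2 1.42.0.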

Additional observations from a re-analysis of the deposited data

Results flagged for a closer look

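For 25 named genes the effect of the genotype differed between capillary ECs and other ECs of the same libraries, by the interaction term of edgeR's quasi-likelihood test. Values are differences of log2 fold changes, capillary minus other ECs, and adjusted p-values are over all 6321 genes tested.

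The difference was above 0 for Ackr1, a chemokine receptor gene of venules, at 3.42 (adjusted p = 0.0299). Its level was uneven between the mutants, at 119 and 17.8 CPM against 5.42 and 4.08 CPM in the controls. Col6a3, which encodes a chain of type VI collagen, differed by 3.17 (9.39e-06), with 142 and 139 CPM against 24.4 and 20.4 CPM in capillary ECs and 93.6 and 88.8 CPM against 122 and 148 CPM in other ECs. Ccn2 differed by 2.57 (9.39e-06), Ptprr by 2.48 (0.0198), Depp1 by 2.14 (0.000164) and Nr5a2, a nuclear receptor gene, by 1.81 (0.0172). Vcam1, an adhesion receptor gene, differed by 1.67 (0.00428), Pparg by 1.57 (0.000187), Atg4a, an autophagy protease gene, by 1.57 (0.00187) and Ccdc85a by 1.48 (0.00041). Among genes of the lists, Cd36 differed by 1.16 (0.00167), Fabp5 by 1.15 (0.00473), Fabp4 by 0.97 (0.00454) and Hes1 by 0.81 (0.0437).

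Below 0 were Col5a2 at -2.88 (0.00213), Col11a1 at -2.73 (0.00028), Lrp4 at -2.37 (0.0206), Slco2a1 at -2.03 (0.00175), Flrt2 at -1.91 (0.0299), Lgals1 at -1.79 (0.00215) and Maged1 at -1.52 (0.0172). Rbms3 differed by -1.40 (0.0299), Lifr by -1.29 (0.00215), Thbs1 by -1.27 (0.0318) and Nav3 by -1.23 (0.00215). Without the Apln and Vwf terms the difference for Thbs1 was 1.76 (0.0057) and that for Maged1 0.85 (0.045), so that both turned sign and passed.

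Without the cells over 1% other markers, Ccn2 (adjusted p = 0.0569), Vcam1 (0.138), Hes1 (0.0642), Col5a2 (0.138), Col11a1 (0.756), Flrt2 (0.0654), Lgals1 (0.245), Maged1 (0.197), Rbms3 (0.138) and Thbs1 (0.0804) did not pass, and Lrp4 was not tested. Of other members of the lists, Itga6, an integrin gene (1.44, 0.000187), Hspa1b (1.13, 0.00215) and Lpl, the lipoprotein lipase gene (1.03, 0.035), were above 0. Col1a1 (-5.42, 9.08e-05), Col1a2 (-5.00, 5.08e-05) and Sparc (-1.15, 0.00545) were below 0 and did not pass without those cells (adjusted p = 0.725, 0.776 and 0.874). The part of RNA from other cell types in these differences was not tested.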

How the results depend on the processing

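The share of capillary ECs among ECs differed by -7.81 percentage points (mutant minus control), by -6.45 with at least 3 UMIs over Aplnr and Gpihbp1, by 4.49 without the Apln and Vwf terms, and by -8.17 to -7.45 with 1 library left out. The 472 called genes (206 higher, 266 lower) became 282 (132, 150) with at least 3 UMIs, 209 (100, 109) with DESeq2, 995 (459, 536) with the gate set after thinning to 3000 UMIs, 2030 (985, 1045) without the Apln and Vwf terms, 252 (115, 137) when a log2 fold change over 1 was also required, 153 (79, 74) in cells with an Aplnr UMI and 24 (11, 13) in cells without one. Without a gene filter, 7 (5, 2) of 19522 genes were called and 1676 had an unadjusted p under 0.05. With 1 library left out there were 114 to 586 calls (51 to 272 higher, 63 to 314 lower). A lone library left in a genotype is assumed to vary like the other genotype. The 45 interaction calls (23, 22) became 328 (150, 178) without the Apln and Vwf terms, 172 (84, 88) without a gene filter, 125 (81, 44) against other ECs under 2 UMIs of Aplnr and Gpihbp1, 25 (17, 8) without cells over 1% other markers, and 48 to 63 (24 to 40, 18 to 32) with 1 library left out. Same-numbered libraries did not deviate together (correlation -0.02), and a replicate block gave 511 calls (221, 290), or 39 (20, 19) for the interaction. Causes of these changes were not tested.

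In cells without an Aplnr UMI the log2 fold change turned sign for Emcn (0.073), Vcam1 (-0.038), Pparg (-0.051), Ccdc85a (-0.74), Lgals1 (-0.51), Thbs1 (-0.41), Col4a1 (-0.29), Rgcc (-0.35) and Aqp1 (-0.025). It did so without the Apln and Vwf terms for Vcam1 (-0.48), Pparg (-0.49), Atg4a (-0.61), Ccdc85a (-1.02), Maged1 (1.23), Tcf15 (-0.26) and Klf2 (-0.13), and after thinning for Vcam1 (-0.38), Atg4a (-0.45) and Ccdc85a (-0.18). Col18a1, at 0.03 with all capillary ECs and 1.07 (adjusted p = 5.2e-05) without the Apln and Vwf terms, turned to -0.22 in cells with Aplnr, -0.0002 without a gene filter, -0.004 without cells over 1% other markers, -0.063 without control replicate 1 and -0.049 without mutant replicate 2. Lgals1 turned to -0.11 without control replicate 2 and -0.09 without mutant replicate 1, and Mgp to -0.36 without mutant replicate 1. With 1 library left out the ranges were -0.063 to 0.15 for Col18a1, -0.11 to 0.36 for Lgals1 and -0.36 to 3.20 for Mgp. The interaction turned sign without the Apln and Vwf terms for Fabp5 (-0.46), Maged1 (0.85), Thbs1 (1.76), Fabp4 (-0.011), Hes1 (-0.016) and Cd36 (-0.047). Of the other values for named genes, 1353 kept direction and side of the threshold, 434 no longer passed and 29 newly passed. For the interaction, 194 kept both and 49 no longer passed. Depth limited genes under the filter, since 37 and 41 mutant cells held 253116 and 280956 UMIs.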
